A study of Mus musculus with 6 samples.

Results

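The 5 Fc gamma receptor genes *Fcgr1*, *Fcgr3*, *Fcgr4*, *Fcgr2b* and *Fcgrt* were followed in RNA-Seq values of osteoclast precursors from inflamed calvarial bone. They were found by gene symbol among the 24346 symbols of the expression tables, and all 5 were among the 11301 genes with an FPKM (a read count scaled to transcript length and library size) that reached 1 in some mouse, which were the genes tested. The cells were EGFP+ cells sorted from bone marrow of the calvaria of CX3CR1-EGFP knock-in mice, in which the reporter is driven by the *Cx3cr1* locus and labels monocyte-lineage cells. The reporter was present in all 6 mice, controls included, and each had been injected in the periosteum of the skull with 20 mg/kg of lipopolysaccharide (LPS). JAK inhibitor-treated mice (n = 3) were given ABT-317, a selective inhibitor of JAK1, orally at 60 mg/kg in 2 doses per day for 5 days, and vehicle-treated mice (n = 3) were given the solvent on the same schedule. Neither unstimulated mice nor mature osteoclasts were part of these libraries, and the age of these mice was not given in the sources used here. The comparisons asked whether the activating receptors differed from the inhibitory one, and the interferon-induced *Fcgr1* from the rest, between JAK inhibitor and vehicle.

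Fc gamma receptors bind the constant part of IgG antibodies and let myeloid cells respond to immune complexes and opsonized particles. In mice, the products of *Fcgr1*, *Fcgr3* and *Fcgr4* are activating receptors that depend on the signaling chain encoded by *Fcer1g*, whose phosphorylated motif recruits the kinase SYK. The product of *Fcgr2b* carries an inhibitory motif in its own tail and recruits the lipid phosphatase encoded by *Inpp5d*. *Fcgr1* encodes the high-affinity receptor and is a classical interferon-gamma target. *Fcgrt* encodes the neonatal Fc receptor, a relative of MHC class I heavy chains that pairs with beta-2 microglobulin in endosomes and protects IgG from degradation; it does not signal through *Fcer1g*. Immune complexes and activating Fc gamma receptors are known to act on osteoclast precursors in inflammatory bone loss.

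*Fcgr2b* (170958617 to 170976547), *Fcgr4* (171018920 to 171029761) and *Fcgr3* (171051174 to 171064935) lie next to each other on chromosome 1, *Fcgr1* lies on chromosome 3 (96282909 to 96293969) and *Fcgrt* on chromosome 7 (45092990 to 45103851; all in GENCODE M21 on GRCm38, the build that mm10 names). *Fcgr4* is on the plus strand and the other 4 genes are on the minus strand. Promoter windows of 300 bases, from 250 before to 50 after the RefSeq gene start (GRCm38.p6), were found for all 5 genes. The 3 shown here belong to the genes whose treatment groups did not overlap, and are written 5' to 3' on the strand of the gene. Capitals in the *Fcgr1* window (chr3:96293920-96294219) mark a match to the gamma-activated site, TTCNNNGAA, the letters that STAT dimers bind.

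Fcgr1: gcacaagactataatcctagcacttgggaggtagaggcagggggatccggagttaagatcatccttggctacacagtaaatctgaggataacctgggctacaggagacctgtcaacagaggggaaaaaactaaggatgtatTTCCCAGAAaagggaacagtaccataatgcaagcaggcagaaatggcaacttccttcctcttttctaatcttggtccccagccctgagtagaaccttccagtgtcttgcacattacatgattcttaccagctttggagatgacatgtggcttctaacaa

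Fcgr2b: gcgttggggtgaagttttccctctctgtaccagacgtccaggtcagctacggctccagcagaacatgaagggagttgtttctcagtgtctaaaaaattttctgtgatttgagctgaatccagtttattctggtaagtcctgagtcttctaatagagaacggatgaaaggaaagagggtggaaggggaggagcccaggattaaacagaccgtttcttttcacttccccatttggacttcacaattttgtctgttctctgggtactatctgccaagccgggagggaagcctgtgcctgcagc

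Fcgrt: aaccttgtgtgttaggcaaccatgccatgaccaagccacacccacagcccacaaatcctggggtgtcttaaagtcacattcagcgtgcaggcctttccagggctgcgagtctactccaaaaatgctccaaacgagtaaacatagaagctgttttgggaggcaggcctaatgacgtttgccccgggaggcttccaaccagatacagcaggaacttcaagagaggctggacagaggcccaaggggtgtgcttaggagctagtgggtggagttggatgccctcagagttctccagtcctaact

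The *Fcgr2b* window is chr1:170976022-170976321 and the *Fcgrt* window is chr7:45103773-45104072. The *Fcgr1* match, TTCCCAGAA, lies at bases 142 to 150 of its window and so begins 109 bases before the RefSeq start. A match to these letters, which read the same on both strands, was found in 8.3% of 32851 promoter windows of this length, and *Fcgr1* was the 1 member of 5 that had it. A core of the interferon-stimulated response element, which is GAAA, any 2 bases and GAAA on either strand, was found in 3.44% of windows and in *Fcgr4* alone among the members, as GAAAAGGAAA at bases 178 to 187. The letters GAGGAA, which the myeloid factor PU.1 binds, occurred on either strand in 28.3% of windows and in those of *Fcgr1*, *Fcgr3* and *Fcgr4*. The windows of *Fcgr2b* and *Fcgrt* held none of these letters. No binding was measured, so these are descriptions of sequence.

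*Fcgr2b* and *Fcgr3* are close copies over part of their coding sequence, which bears on how reads were shared between the activating and the inhibitory gene. Their longest coding sequences were 83.9% identical over 784 aligned bases, against at most 63.5% for any other pair of members. The longest stretch without a difference spanned 129 bases, which come from exons 3 and 4 of *Fcgr3* (chr1:171057691-171057792 and chr1:171054167-171054193) and from exons 5 and 6 of *Fcgr2b* (chr1:170967980-170968081 and chr1:170966674-170966700). It is shown as the stretch in which a read cannot be assigned to 1 of the genes by its letters.

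Fcgr3 and Fcgr2b: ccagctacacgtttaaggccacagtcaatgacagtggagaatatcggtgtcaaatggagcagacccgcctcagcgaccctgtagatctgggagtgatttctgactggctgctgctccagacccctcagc

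Of the 75-base windows, the read length of this study, in the coding transcripts of *Fcgr3*, 5.78% also occurred in *Fcgr2b*, and 2.48% of those of *Fcgr2b* occurred in *Fcgr3*. No such window was shared by any other pair of members. How the authors' program divided shared reads is not given in the sources used here, so a small part of the *Fcgr2b* and *Fcgr3* values is uncertain between the 2 genes.

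The labelled cell type was first compared with its markers. *Csf1r*, the receptor of macrophage colony-stimulating factor, had an FPKM of 355 to 422 over the 6 mice and the monocyte gene *Ly6c2* of 2751 to 4617, whereas *Cx3cr1*, whose locus drives the reporter, was at 15.5 to 36.1. Genes of basophils were high as well, with *Mcpt8* at 463 to 1130.2 and *Prss34* at 923 to 2338. The B cell genes *Ms4a1*, *Pax5* and *Ebf1* were listed at 0 in every mouse. The FPKM summed to between 688372 and 775790 per library. Read counts and the absolute depth are unknown, and the steps between low values gave relative depths that spanned a rough 1.16-fold. Vehicle-treated mouse 3 stood apart, with the lowest weight of the 6 libraries when limma estimated weights (0.437, against 0.976 to 1.48), and values without it, chosen after seeing the data, are given beside the results it moved most. Over all tested genes, 15 (0.133%) passed an adjusted p of 0.05 in limma, and none of these was a member. Nothing in the labels says more about the samples than separate numbers, although the study counts 3 mice per group, and p-values measure the spread between these libraries.

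**Figure D1:**
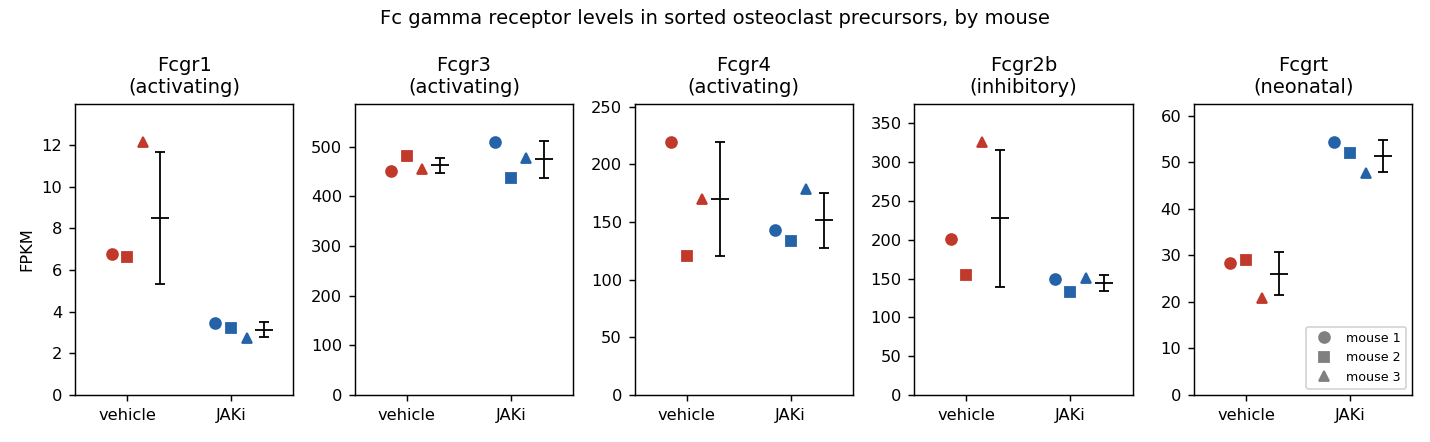
FPKM of the 5 Fc gamma receptor genes in each mouse; red symbols are vehicle-treated and blue symbols JAK inhibitor-treated (JAKi) mice, the symbol shape gives the mouse number within its group, and black bars are the mean ± SD of 3 mice. *Fcgr1* and *Fcgr2b* lie lower and *Fcgrt* lies higher in all 3 JAK inhibitor-treated mice, and *Fcgr3* and *Fcgr4* overlap.

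FPKM is scaled by transcript length, so levels can be ordered between the genes. *Fcgr3* was the highest in both groups, at 463 ± 15.8 FPKM (SD, n = 3) in the vehicle group and 475 ± 37.2 (SD, n = 3) in the JAK inhibitor group, above 97.6% of tested genes when averaged over the 6 mice. *Fcgr2b* and *Fcgr4* came next. Their ranges overlapped in both groups and their order differed between mice, so these neighbours did not differ beyond their spread. *Fcgrt* followed and *Fcgr1* was the lowest in every mouse, above 34.6% of tested genes. The gap between these last neighbours was 3.07-fold in the means with vehicle and 16.4-fold with JAK inhibitor.

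*Fcgr1*, the high-affinity activating receptor, was lower in the JAK inhibitor-treated mice. Its FPKM was 6.74, 6.60 and 12.2 in vehicle-treated mice 1 to 3 and 3.47, 3.21 and 2.73 in JAK inhibitor-treated mice 1 to 3. Every vehicle-treated mouse thus lay above every JAK inhibitor-treated mouse, and vehicle-treated mouse 3 was the highest. The means were 8.498 ± 3.17 (SD, n = 3) and 3.14 ± 0.374 (SD, n = 3), a ratio of 2.71. In log2(FPKM + 1), a scale on which differences of low genes come out too small, the difference was -1.15 (standard error 0.23, 95% interval -1.67 to -0.64). The unadjusted limma p was 0.000717, which ranks it 79th of the 11301 genes, and the adjusted p in limma was 0.102, so the difference did not pass the threshold of 0.05. Permuting the mice exactly (2-sided) gave p = 0.1, and 3 against 3 cannot give less. Without vehicle-treated mouse 3 the difference was -0.89 (adjusted p = 0.0657 in limma). In these bulk samples, fewer cells of a type and less RNA per cell cannot be told apart.

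*Fcgrt*, the neonatal Fc receptor, was higher and had the smallest p of the 5 genes. Its FPKM was 28.5, 29.1 and 20.8 in vehicle-treated mice 1 to 3, against 54.5, 52.1 and 47.8 in JAK inhibitor-treated mice 1 to 3. The groups did not overlap, and the lowest JAK inhibitor-treated mouse was well above the highest vehicle-treated mouse. The mean was 1.97 times as high with JAK inhibitor, at 51.4 ± 3.39 (SD, n = 3) against 26.1 ± 4.63 (SD, n = 3). The log2 difference was 0.97 (standard error 0.14, 95% interval 0.65 to 1.28). The unadjusted limma p was 7.31e-05, rank 16 of all tested genes, and the adjusted p in limma was 0.0516, just outside the threshold. In 8 of 14 alternative fits the adjusted p in limma was under 0.05, the smallest being 0.0105 without vehicle-treated mouse 3, and in the others it reached 0.226. *Fcgrt* is therefore at the edge of the call, and its log2 difference was 0.81 to 1.05 over the 14 fits.

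*Fcgr2b*, the inhibitory receptor, had lower and more even values with JAK inhibitor. The FPKM was 201, 155 and 326 in vehicle-treated mice 1 to 3 and 149, 133 and 151 in JAK inhibitor-treated mice 1 to 3. The groups did not overlap, but vehicle-treated mouse 2 lay only just above the highest JAK inhibitor-treated mouse. The means were 227 ± 88.8 (SD, n = 3) and 144 ± 10.1 (SD, n = 3), and the log2 difference was -0.59 (standard error 0.23, 95% interval -1.10 to -0.07, adjusted p = 0.258 in limma). The size of the difference rested on vehicle-treated mouse 3, without which it was -0.29 (adjusted p = 0.334 in limma), and it was -0.83 without vehicle-treated mouse 2 (adjusted p = 0.0815 in limma).

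*Fcgr3* and *Fcgr4*, the low- and intermediate-affinity activating receptors, showed no difference larger than the spread between mice. *Fcgr3* had an FPKM of 452, 481 and 455 in vehicle-treated mice 1 to 3 and of 511, 436 and 478 in JAK inhibitor-treated mice 1 to 3. Its log2 difference was 0.04 (standard error 0.09, adjusted p = 0.881 in limma) and the 95% interval, -0.16 to 0.23, was the narrowest of the 5. *Fcgr4* had 219.7, 121 and 169.6 with vehicle and 143, 133 and 179 with JAK inhibitor, so that the highest and the lowest value were both in vehicle-treated mice. The log2 difference of *Fcgr4* was -0.13 (standard error 0.20, adjusted p = 0.789 in limma), and its 95% interval of -0.59 to 0.32 leaves room for a difference of either sign.

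Over the 5 genes, 3 had treatment groups without overlap (*Fcgr1* and *Fcgr2b* lower, *Fcgrt* higher), against 22.0% of all tested genes, and the same 3 had an unadjusted limma p under 0.05, against 16.0% of all tested genes. Lower groups without overlap made up 12.1% and higher groups 9.92% of all tested genes. Without vehicle-treated mouse 3, the count of members without overlap was again 3, against 30.8% of the genes tested then. With 5 genes, these counts describe the members and are not a test of the family.

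The balance between activating and inhibitory receptors was then compared within each mouse, where the scaling of the library cancels. The summed FPKM of *Fcgr1*, *Fcgr3* and *Fcgr4* was 608 to 679 with vehicle and 573 to 659 with JAK inhibitor, with overlap. Divided by *Fcgr2b*, it was 3.38, 3.93 and 1.95 in vehicle-treated mice 1 to 3 and 4.40, 4.32 and 4.37 in JAK inhibitor-treated mice 1 to 3. All 3 JAK inhibitor-treated mice were above all vehicle-treated mice, with means of 4.36 ± 0.0416 (SD, n = 3) against 3.09 ± 1.02 (SD, n = 3). The share of *Fcgr2b* in the sum of the 4 receptors was 20.3% to 33.9% with vehicle and 18.5% to 18.8% with JAK inhibitor. Without vehicle-treated mouse 3, the vehicle mean of the ratio was 3.65 (n = 2) and the share of *Fcgr2b* in those mice was 20.3% to 22.9%, so the groups still did not overlap but lay closer.

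**Figure D2:**
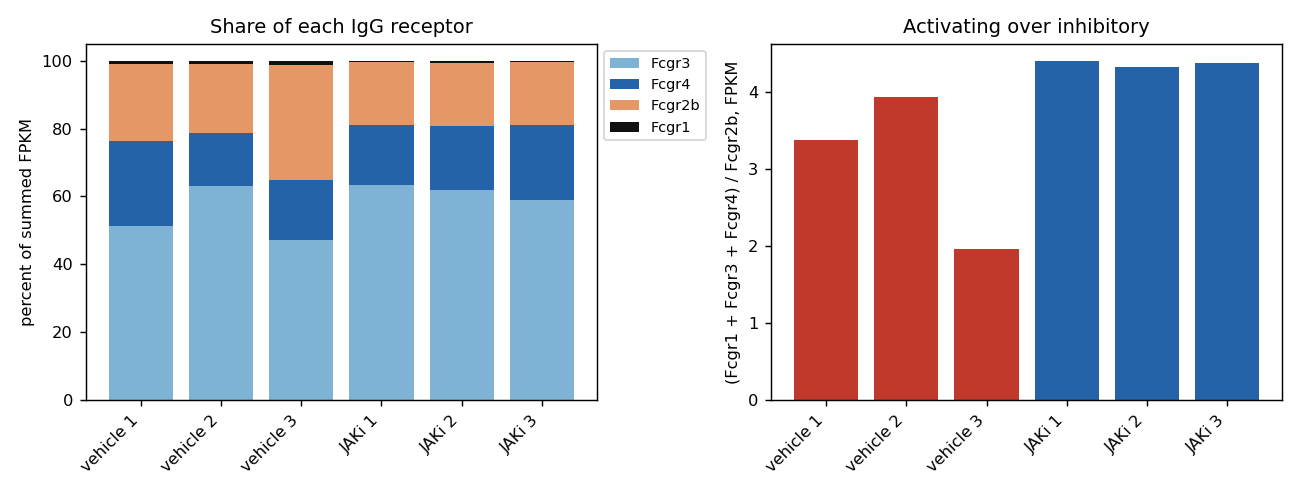
Left, share of each of the 4 IgG receptors in their summed FPKM, by mouse, in percent; right, summed FPKM of the 3 activating genes divided by that of *Fcgr2b*, by mouse (red, vehicle; blue, JAK inhibitor). The ratio is 4.32 to 4.40 in the JAK inhibitor-treated mice and 1.95 to 3.93 in the vehicle-treated mice.

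Compared singly with *Fcgr2b*, the activating genes differed in direction. The log2 ratio of *Fcgr3* to *Fcgr2b* was 1.17, 1.63 and 0.48 with vehicle and 1.77, 1.71 and 1.66 with JAK inhibitor, a difference of 0.62 without overlap (0.31 without vehicle-treated mouse 3). That of *Fcgr4* to *Fcgr2b* was higher by 0.45 on average, but its groups overlapped (exact permutation test, p = 0.3) and it was 0.18 without vehicle-treated mouse 3. The ratio of *Fcgr1* to *Fcgr2b* was lower, at -4.71, -4.36 and -4.64 with vehicle and -5.07, -4.99 and -5.35 with JAK inhibitor, a difference of -0.57 without overlap. These single ratios are of FPKM + 1, so the scaling of the library cancels only nearly, least so for the low *Fcgr1*. With 0.1 added in place of 1, the difference of *Fcgr1* to *Fcgr2b* was -0.77. *Fcgr1* thus had the larger relative difference of the 2 lower genes, and the ratio to the inhibitory gene was higher for *Fcgr3* and lower for *Fcgr1*.

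*Fcgr1* was also compared with the other members. Its log2 ratio to *Fcgr3* was lower by 1.19 with JAK inhibitor than with vehicle, that to *Fcgr4* by 1.02 and that to *Fcgrt* by 2.12, each without overlap. The ratio to *Fcgrt* separated the groups most, with -1.93, -1.99 and -0.73 for vehicle against -3.63, -3.65 and -3.71 for JAK inhibitor. Without vehicle-treated mouse 3 the differences were smaller, at -0.92 for the ratio to *Fcgr3*, -0.78 for that to *Fcgr4* and -1.71 for that to *Fcgrt*. For the 5 of 6 ratios without overlap an exact 2-sided permutation over mice had p = 0.1, its lower limit, and 0.12 after adjustment over the 6 ratios, so none could pass 0.05 in a design of this size. No ratio changed its sign in any of its 10 alternatives.

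**Figure D3:**
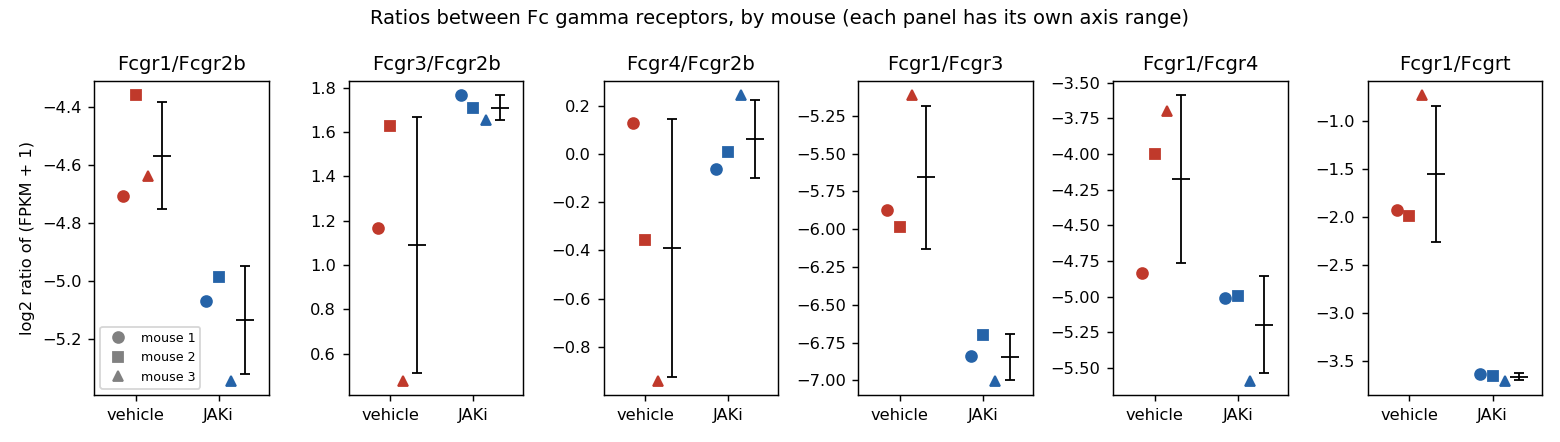
Log2 ratio of (FPKM + 1) between 2 members in each mouse, for the 6 ratios compared; red, vehicle; blue, JAK inhibitor (JAKi); black bars, mean ± SD of 3 mice. The ratios of *Fcgr1* to each of the other 4 genes lie lower with JAK inhibitor, *Fcgr3* to *Fcgr2b* lies higher, and *Fcgr4* to *Fcgr2b* overlaps.

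*Fcer1g*, the chain that the activating receptors share, was above 99.9% of tested genes in level and showed no difference beyond the spread between mice. Its FPKM was 3757, 2994 and 3251 in vehicle-treated mice 1 to 3 and 3597, 2954 and 3409 in JAK inhibitor-treated mice 1 to 3. Its log2 difference was -0.0046, with a 95% interval of -0.27 to 0.26. It exceeded the summed activating receptors 4.92- to 5.54-fold in every mouse, and this ratio overlapped between the groups. *Syk*, the kinase that binds the chain, had a log2 difference of 0.17 (standard error 0.10, adjusted p = 0.441 in limma), without overlap. Of the SRC-family kinases that start the signal, *Lyn* was at 141 to 156 FPKM in all 6 mice. *Fyn* was higher without overlap, by 0.47 (adjusted p = 0.225 in limma), and by 0.32 without vehicle-treated mouse 3 (adjusted p = 0.398 in limma).

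Of the 7 genes of the shared chain and its kinases, 0 had a lower and 1 a higher value at an unadjusted limma p under 0.05. Of 21 genes of the activating relay downstream, 2 were lower at this threshold and 1 was higher, with a median log2 difference of 0.02. These were *Lat* (-0.43) and *Pik3r5* (-0.50), an adaptor and a subunit of PI3 kinase, and *Vav3* (0.52), an exchange factor for RAC. Of 10 genes of the inhibitory relay, 0 were lower and 1 was higher at this threshold, and the median was -0.06. *Inpp5d*, the phosphatase that *Fcgr2b* acts through, had an FPKM of 42.7 to 59.7 with vehicle and 41.9 to 47.8 with JAK inhibitor, and *Ptpn6* had a log2 difference of -0.15 with overlap. Of 5 genes of the phagocytic oxidase, which immune complexes activate, *Ncf4* was lower at this threshold (-0.25) and the median was -0.10. Without vehicle-treated mouse 3, the shared chain and kinases had 0 genes at this threshold, the activating relay had 1 lower and 1 higher, *Inpp5d* had a log2 difference of -0.01 in place of -0.15, and the median of the inhibitory relay was 0.04, of the opposite sign. None of the genes in these lists passed the adjusted threshold in limma. Over all tested genes the median was -0.0035, and 9.4% were lower and 6.57% higher at the unadjusted threshold.

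**Figure D4:**
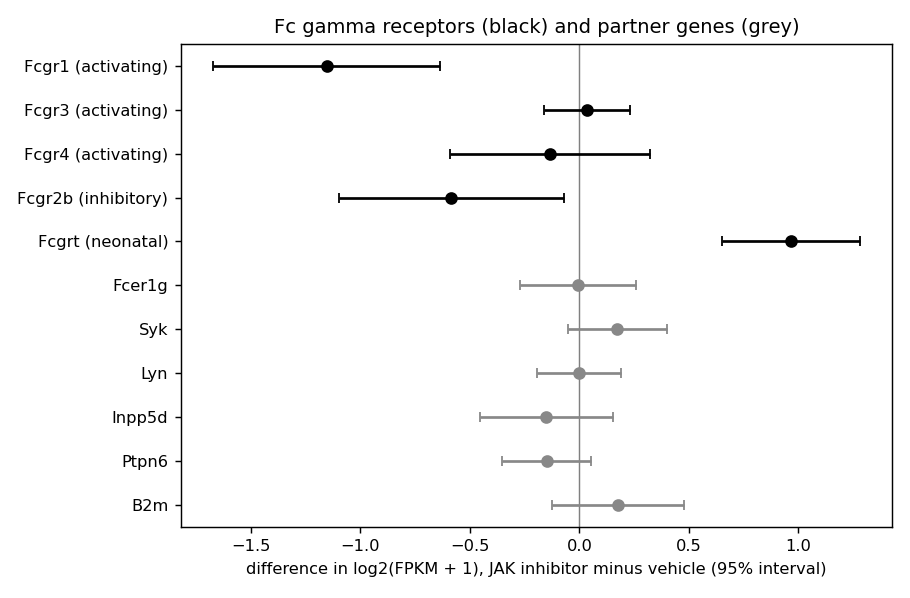
Difference in log2(FPKM + 1) between JAK inhibitor- and vehicle-treated mice, with 95% intervals from limma, for the 5 Fc gamma receptors (black) and 6 partner genes (grey). The intervals of *Fcgr1*, *Fcgr2b* and *Fcgrt* do not reach 0, and those of the 6 partner genes do.

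*B2m*, the light chain of the neonatal Fc receptor, overlapped between the groups. Its FPKM was 2663, 2269 and 1878 in vehicle-treated mice 1 to 3 and 2664, 2305 and 2660.1 in JAK inhibitor-treated mice 1 to 3, with a log2 difference of 0.18 (standard error 0.13, adjusted p = 0.559 in limma). The difference of *B2m* was 0.05 without vehicle-treated mouse 3 and 0.30 without vehicle-treated mouse 1, so its size rested on single mice. It stayed far in excess, at 78.0 to 93.6 times *Fcgrt* with vehicle and 44.3 to 55.7 times with JAK inhibitor. Of the 4 genes listed as partners of *Fcgrt* or intracellular IgG sensing, 3 were tested, 0 had an unadjusted limma p under 0.05, and *Alb*, whose product is also bound by the neonatal receptor, was listed at 0 in every mouse.

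Other Fc receptors were sparse except for that of IgE. *Fcer1a*, the IgE-binding chain, had an FPKM of 62.9 to 122 with vehicle and 67.2 to 127 with JAK inhibitor. Of 12 Fc receptor and Fc receptor-like genes, 6 reached the filter, and 1 of these, *Fcrlb*, was lower at an unadjusted limma p under 0.05. *Fcrlb* lies near *Fcgr2b*, with *Fcrla* (log2 difference 0.34, with overlap) between them. The FPKM of *Fcrlb* was 0.784, 0.416 and 4.32 in vehicle-treated mice 1 to 3 and 0.023, 0.265 and 0 in JAK inhibitor-treated mice 1 to 3. Of these low values only that of vehicle-treated mouse 3 exceeded 1, so that *Fcrlb* did not reach the filter without that mouse. *Fcer2a*, *Fcmr*, *Pigr* and *Fcrl5* stayed below 0.5 in every mouse, and *Fcamr* and *Fcrl6* were listed at 0. Of 12 symbols of immunoglobulin chains, the ligands, 1 was matched, *Jchain*, whose groups overlapped, and the others were not analysed here.

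The genes around *Fcgr2b*, *Fcgr4* and *Fcgr3* on chromosome 1 were read for comparison, within 250 kb. *Dusp12*, *Atf6* and *Tomm40l* overlapped between the groups, with log2 differences of 0.06, -0.02 and -0.09. *Sdhc*, a subunit of succinate dehydrogenase, was lower without overlap by a small amount (-0.22, adjusted p = 0.296 in limma), and *Usp21*, a deubiquitinase, was higher without overlap (0.30, adjusted p = 0.288 in limma). *Fcer1g* is in this window too. The 3 receptor genes thus stood among neighbours with differences in both directions.

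*Fcgr1* was set beside a list of 23 interferon-gamma induced genes, of which 18 were tested. Of these, 4 were lower and 1 was higher at an unadjusted limma p under 0.05, against 9.4% and 6.57% of all tested genes. None passed the adjusted threshold, and the median log2 difference was -0.07. The lower genes were the GTPases *Gbp2* (-0.83), *Irgm1* (-0.40) and *Igtp* (-0.52) and the factor *Irf1* (-0.27). *Irf8*, a factor of monocyte fate, was the higher gene (0.64), with 0.39 without vehicle-treated mouse 3 (adjusted p = 0.112 in limma). Groups without overlap numbered 5 lower and 2 higher, against 12.1% and 9.92% of all tested genes. The 2 higher ones were *Irf8* and *Gbp3*, another GTPase (0.23, adjusted p = 0.334 in limma). The lower ones were the 4 named above and *Nos2*, at 0.144, 0.045 and 3.31 FPKM in vehicle-treated mice 1 to 3 and 0 in every JAK inhibitor-treated mouse. *Nos2* is thus near the floor and reached the filter only through vehicle-treated mouse 3. Without vehicle-treated mouse 3, 3 of 17 genes were lower and 1 was higher at the unadjusted threshold, *Igtp* no longer being among them. Of the 11130 genes tested then, 904 were lower and 600 higher, and the median of the list was -0.12. *Cxcl9* was listed at 0 in every mouse.

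**Figure D5:**
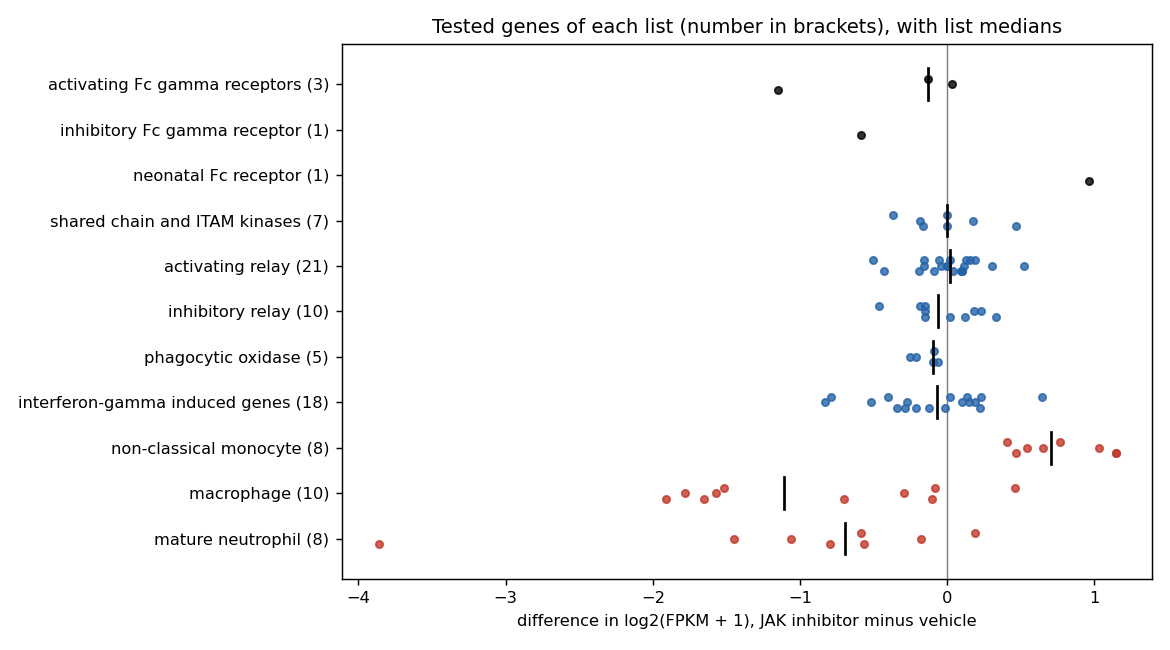
Difference in log2(FPKM + 1), JAK inhibitor minus vehicle, for each tested gene of the Fc gamma receptor groups (black), the signaling and interferon lists (blue) and 3 lists of cell type markers (red); short vertical bars are list medians and the number in brackets is the number of tested genes. The signaling and interferon lists center near 0, the 8 non-classical monocyte genes lie above 0, and 9 of 10 macrophage genes lie below it.

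Markers of other cells differed between the groups beside these receptors. Of 10 macrophage markers, 9 had a negative log2 difference, 5 were lower at an unadjusted limma p under 0.05 and the median was -1.11; their summed FPKM was 744 to 902 with vehicle and 528 to 668 with JAK inhibitor. Of its defining genes, *Mertk* was lower without overlap (-1.57), and *Adgre1* (-0.10) and *Cd68* (-0.08) overlapped. Macrophages are a main source of *Fcgr1*. Of 8 markers of non-classical monocytes, which are known for high *Fcgr4*, all had a positive difference and 7 were higher at this threshold, with a median of 0.71; their summed FPKM was 258 to 563 with vehicle and 601 to 666 with JAK inhibitor. Over all tested genes, 9.4% were lower and 6.57% higher at this threshold. Without vehicle-treated mouse 3 the medians of the macrophage and non-classical monocyte markers were -1.13 and 0.49. Then 7 of 10 macrophage markers were lower and 1 was higher at this threshold, and 7 of 8 non-classical monocyte markers were higher. Of the 11130 genes tested then, 904 were lower and 600 higher. Of 8 tested mature neutrophil markers, 7 had a negative and 1 a positive difference, with a median of -0.69. Their summed FPKM was 10020 to 20960 with vehicle, highest in vehicle-treated mouse 3, and 6535 to 13360 with JAK inhibitor, with overlap. Without vehicle-treated mouse 3, 6 were negative and 2 positive, with a median of -0.65. The part of these cells in the differences of *Fcgr1*, *Fcgr2b* and *Fcgrt* was not tested.

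Other cell types that carry a member were read in the same way. Endothelial cells use *Fcgrt*, but *Cdh5*, *Kdr*, *Tek* and *Emcn* were each below 0.5 in every mouse. *Pecam1*, which leukocytes express too, was the 1 tested gene of that list (log2 difference 0.75, adjusted p = 0.215 in limma, with overlap; 0.48 without vehicle-treated mouse 3). B cells carry *Fcgr2b*, and of the 8 B cell markers 3 were tested, none with an unadjusted limma p under 0.05. Among them *Cd79b*, at 26.7 to 35.4, was the 1 gene above 4 FPKM. NK cells carry *Fcgr3*; their summed markers were 9.75 to 38.3 with vehicle, where the highest value was that of vehicle-treated mouse 3, and 0.199 to 13.6 with JAK inhibitor, with overlap. Of their 4 tested markers 2 were lower at this threshold, against 1 of 3 without vehicle-treated mouse 3, and *Ncr1* reached at most 1.71. Markers of basophils and mast cells, which carry *Fcer1g* and *Fcgr2b*, summed to 1572 to 3397 with vehicle and 2411 to 3692 with JAK inhibitor, with overlap and a median log2 difference of 0.16, or 0.04 without vehicle-treated mouse 3. Of these 6 markers 1, *Mcpt8* (0.60), was higher at this threshold and 0 were lower, and without vehicle-treated mouse 3 none was at it. Dendritic cell markers overlapped in sum, with a median of -0.09, or -0.19 without vehicle-treated mouse 3. Of 5 tested, 0 were lower and 1 was higher at this threshold, against 2 lower and 0 higher without that mouse. Erythroid markers were at 0.087 to 0.246 in sum with vehicle and 2.17 to 44.2 with JAK inhibitor, without overlap. *Hba-a1* was the main gene, at 2.64, 1.96 and 38.6 in JAK inhibitor-treated mice 1 to 3, so the upper end rests on mouse 3. Of 3 tested erythroid markers, 0 were lower and 1 was higher at this threshold, with or without vehicle-treated mouse 3. The 7 markers of the sorted lineage had a median of 0.01, and 2 of them, *Cd14* (-0.83, without overlap) and *Itgam* (-0.34, with overlap), were lower at an unadjusted limma p under 0.05, against 1 of 7 without vehicle-treated mouse 3. For all of these lists, the shares of all tested genes at this threshold were 9.4% lower and 6.57% higher.

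For each member, the 3 genes with the most similar values over the 6 mice were read among those with a mean FPKM of at least 10, as a description in which both treatments are pooled and the best of 6033 or 6034 genes is taken. The genes most like *Fcgr1* were *Zfp672* (Pearson r = 0.994), *Agtrap* (r = 0.994) and *Ebna1bp2* (r = 0.992), all lower with JAK inhibitor without overlap. *Fam117a* followed *Fcgrt* most closely (r = 0.999), at 8.01 to 10.9 FPKM with vehicle and 16.0 to 17.3 with JAK inhibitor, ahead of *Atp5sl* (r = 0.997) and *Wsb1* (r = 0.993). For *Fcgr2b* they were *1500011B03Rik*, *1810022K09Rik* and *Fbxl5*, with r of 0.995 to 0.997, and the value of each was highest in vehicle-treated mouse 3. *Rab8a*, a GTPase of vesicle transport, was the nearest to *Fcgr4* (r = 0.995), followed by *Camk2d* (r = 0.96). *Mrpl24*, *Glrx3* and *Rp9* were the nearest to *Fcgr3*, and these 5 genes overlapped between the groups like the receptors they resembled. No gene was among the nearest of 2 members.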

How the data were processed

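The deposited values are FPKM, made by the authors from 75-base single-end reads and given as 1 table per mouse. The submitters' processing notes name TopHat2 2.0.13, Bowtie2 2.2.3, SAMtools 0.1.19, Cufflinks 2.2.1 and mm10, without roles; the annotation is not given in the sources used here. The methods name a stranded mRNA kit and the labels a full-length cDNA kit with transposase libraries. Depth is unknown, so no counting interval is given. The methods describe blocking with an antibody to the proteins of *Fcgr3* and *Fcgr2b* before staining of CCR1; whether cells for RNA were blocked is not stated.

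log2(FPKM + 1), for genes whose FPKM reached 1 in any mouse, was compared with limma 3.58.1 in R 4.3.3 (trended empirical Bayes, Benjamini-Hochberg adjustment over all 11301 genes, no block). Ratios between members were compared with exact 2-sided permutation tests over mice in SciPy 1.17.1. On simulated data for this comparison, with normally distributed noise, 200 genes above a minimum level were changed by 1.5 on the log2 scale, and 95.5% were recovered. This change is larger than the difference of any member, so recovery of differences of the members' size was not tested. Members and lists were chosen with earlier results of these data known. Named genes are the members, the fixed partners, up to 6 genes per pathway list of smallest unadjusted p under 0.05, the first 3 genes of marker lists, neighbours on chromosome 1 and the 3 most similar genes per member. *Ly6c2*, *Cd14*, *Prss34*, *Ms4a1*, *Pax5*, *Ebf1*, *Tek*, *Emcn*, *Cxcl9*, *Gbp3*, *Nos2*, *Jchain*, *Alb*, *Fcer1a* and the Fc receptor genes at or near 0 were chosen after their values were seen. A few genes that this rule would name are not reported here. Alternatives were a pseudocount of 0.1, no filter, a filter of 3 mice, quantile and median ratio scaling, no trend, library weights, the replicate block and each mouse left out. Sequences are from RefSeq (GRCm38.p6) and GENCODE M21, read with Python 3.11.15.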

Additional observations from a re-analysis of the deposited data

How the results depend on the processing

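Same-numbered mice did not deviate together (correlations of deviations from group means 0.0158, 0.0542 and -2e-04), and not every mouse correlated best with its own number. The fit with the replicate block changed 1 call among the members, that of *Fcgrt* (0.97 on the log2 scale, adjusted p = 0.0233 in limma). *Fcgrt* also passed with a pseudocount of 0.1 (0.99), a filter of 3 mice (0.97), quantile normalization (0.99), median ratio scaling (0.97) and library weights (0.87), but not without a filter or without the trend, and over the mice left out it ranged from 0.81 to 1.05, passing without vehicle-treated mouse 2 or 3. *Fcgr1*, *Fcgr2b*, *Fcgr3* and *Fcgr4* stayed outside the adjusted threshold under all 14 alternatives. Leaving out 1 mouse gave -1.29 to -0.89 for *Fcgr1*, -0.83 to -0.29 for *Fcgr2b*, -0.0185 to 0.0946 for *Fcgr3* and -0.36 to 0.0714 for *Fcgr4*, with the sign turning for *Fcgr3* without JAK inhibitor-treated mouse 1 and for *Fcgr4* without vehicle-treated mouse 1. Near 0, *Fcer1g* turned to 0.0048 and *Lyn* to 0.0074 with median ratio scaling, *Lyn* to 0.0374 with quantile normalization, and over the mice left out they ranged from -0.079 to 0.0848 and from -0.0356 to 0.0452. The genes passing over the whole table, 11 lower and 4 higher, were 2 and 0 without a filter, 2 and 0 without the trend, 26 and 8 with a filter of 3 mice, 51 and 12 with library weights and 53 and 14 with the replicate block. Over the mice left out they ranged from 3 to 69 lower and from 0 to 27 higher, with 68 and 27 without vehicle-treated mouse 2 and 69 and 25 without mouse 3. The cause was not tested. Depth is unknown, which limits what can be said of low genes, *Fcgr1* among them.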
